A study of Mus musculus with 6 samples.

Results

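ISG15 is a small ubiquitin-like protein that cells attach to other proteins after interferon exposure. The attachment runs through an enzyme chain like that of ubiquitin: an E1 enzyme (Uba7) activates ISG15, an E2 enzyme (Ube2l6) carries it, an E3 ligase (Herc6 in the mouse) passes it to the substrate, and a protease (Usp18) takes it off again. Usp18 also binds the type I interferon receptor and dampens its signal, and the genes of the pathway are known to be induced by the interferon that the receptor reads.

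The pathway was described by 5 listed genes, Isg15, Uba7, Ube2l6, Herc6 and Usp18, of which 4 were measured among 19938 genes. A gene counted as measured when the platform annotation pairs a probe set with its symbol alone, and the probe set with the highest mean over the 6 arrays stood for the gene. Isg15 itself has no such probe set: the annotation lists it only together with the predicted gene Gm9706, so the signal there cannot be assigned to either gene. The list was drawn up with the difference between the groups already known, so its values are given as a description, with no p-value, and support nothing.

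The cells were stromal cells of the bone marrow (BMSCs), which attach to plastic and can turn into bone-forming or fat cells, from C57BL/6 mice aged 6 months. The WT group (3 arrays) came from wild-type mice and the KO188 group (3 arrays) from miR-188 knockout mice, which lack a microRNA gene. Both groups were grown in an osteogenic medium that held 10% serum, ascorbate-2-phosphate at 0.05 mM, beta-glycerophosphate at 10 mM and dexamethasone at 100 nM. Samples are labelled as biological replicates, and no separate animals or cultures are named, so the spread between arrays may be partly technical, and they name no batch that holds both groups, so genotype and a difference in culture or handling cannot be told apart.

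The medians of the 6 arrays ran from 7.43 to 7.50 (log2), and the number of arrays limits the precision. Most stromal markers were well above the level of silent genes: of 9 stromal and osteoblast-lineage genes, 1 (Lepr) lay at or below 6.72, the level under which 95% of 1194 chemosensory receptor genes fall, used as a rough guide to genes that are not expressed. Against 29.8% of all genes called by limma at an adjusted p of 0.05, 6 of the 9 stromal markers were called, all higher in KO188. With the dimmer genes left out of the fit, 6217 of 9969 genes were called, 2594 of them higher. The summed log2 level of the 9 was 86.05 to 86.38 in WT and 90.03 to 90.51 in KO188. The rise was uneven: Alpl rose most (2.08), then Pdgfra (0.87), while Thy1 (-0.09), Eng (0.04) and Lepr (-0.06) were not called. Of 9 macrophage markers 6 had a mean over the 6 arrays at or below the guide, Ptprc, Adgre1 and Itgam among them. Above it lay Cd68 (8.39 in WT, 8.54 in KO188), Cx3cr1 (7.55 and 7.47) and Fcgr1 (7.25 and 7.28). The groups did not overlap for Cd68, which was not called (limma adjusted p = 0.086). Of the 9, 1 was called (3 at an unadjusted p under 0.05), Mpeg1, which lay below the guide in WT (5.72) and above it in KO188 (7.04), a difference of 1.32; the summed level was 58.35 to 58.46 in WT and 59.18 to 59.87 in KO188. The list of 4 plasmacytoid dendritic cell markers, the cells known for making much type I interferon, had 0 calls by limma (0 at an unadjusted p under 0.05) and summed to 24.89 to 25.23 in WT and 24.87 to 25.31 in KO188. Lymphocyte (7) and granulocyte (6) markers had 0 calls (1 and 0 at an unadjusted p under 0.05), with sums of 41.01 to 41.31 and 36.22 to 36.37 in WT against 39.90 to 41.25 and 36.08 to 36.52 in KO188. Of 5 endothelial markers 1, Kdr, was called, 0.24 higher and below the guide, with sums of 31.19 to 31.39 and 31.24 to 31.50. At or below the guide lay 3 of the 4 plasmacytoid dendritic cell markers, 5 of 7 lymphocyte, 4 of 6 granulocyte and 4 of 5 endothelial markers. A change in such dim genes would be hard to see, so few or 0 calls do not show that these cells were unchanged. The part of any of these lists in the results was not tested.

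Sequences upstream of the pathway genes came from RefSeq windows on build GRCm38.p6 that run from 250 bases before to 50 bases after the annotated start. Such a window was found for 4 of the 5 genes, Isg15, Uba7, Ube2l6 and Herc6. They were searched on both strands for GAAANNGAAA, the core letters of the interferon-stimulated response element (ISRE), through which type I interferon is known to act on its target genes. The Isg15 window (chr4:156200769-156201068, minus strand) is printed because it alone of the 4 held a match, and the Ube2l6 window (chr2:84798578-84798877, plus strand) because that gene had the largest difference and no match; capitals mark the matches.
Isg15: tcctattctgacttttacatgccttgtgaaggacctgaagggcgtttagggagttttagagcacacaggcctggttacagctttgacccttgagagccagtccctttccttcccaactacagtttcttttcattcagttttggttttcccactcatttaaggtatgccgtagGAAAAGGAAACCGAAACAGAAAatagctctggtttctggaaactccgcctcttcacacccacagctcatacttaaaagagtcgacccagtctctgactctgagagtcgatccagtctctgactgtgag
Ube2l6: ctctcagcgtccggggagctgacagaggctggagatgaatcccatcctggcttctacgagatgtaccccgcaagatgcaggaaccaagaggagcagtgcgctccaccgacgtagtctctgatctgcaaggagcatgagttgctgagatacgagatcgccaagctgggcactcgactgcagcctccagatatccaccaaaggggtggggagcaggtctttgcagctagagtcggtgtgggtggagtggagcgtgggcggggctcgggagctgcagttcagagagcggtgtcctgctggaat

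In the Isg15 window 3 matches overlapped in a run of 22 bases, starting 78, 72 and 66 bases before the start. The Uba7, Ube2l6 and Herc6 windows held no match, which says only that these letters are not in those 300 bases. For comparison, 3.44% of 32851 RefSeq windows of this length held at least 1 match. None of the 4 windows held TTCNNNGAA, the core letters of the gamma-activated site (GAS), another interferon response element, against 8.30% of all windows.

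All 4 measured genes of the pathway were higher in KO188, the E2, the ligase and the protease by about the same amount and the E1 by less. The median difference was 2.64 on the log2 scale, beside a median of -0.01 over all tested genes. All 4 were among the genes that limma called higher, beside 13.3% of all genes called higher and 16.5% called lower, and in all 4 the groups did not overlap, beside 41.5% of all genes, of which those higher in KO188 made 18.8% of all genes. Since the list was chosen on this contrast, nothing is read from these counts. A higher level in bulk RNA can come from more cells that carry the transcript or from more of it per cell, and these cannot be told apart.

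Uba7, the E1 that activates ISG15, read 8.25, 8.21 and 8.22 on the log2 scale in WT replicates 1 to 3 and 9.46, 9.46 and 9.43 in KO188 replicates 1 to 3. The lowest KO188 array lay 1.18 above the highest WT array. The WT mean was 8.23 ± 0.02 and the KO188 mean 9.45 ± 0.02 (SD, n = 3 each), a difference of 1.22 (SE 0.026) or 2.34-fold.

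Ube2l6, the E2 that carries ISG15 to the ligase, read 9.11, 9.10 and 9.19 in WT and 11.89, 11.84 and 11.85 in KO188. The groups were 2.64 apart at their nearest arrays. The WT mean was 9.13 ± 0.05 and the KO188 mean 11.86 ± 0.03 (SD, n = 3 each), a log2 difference of 2.73 (SE 0.035) or 6.62-fold.

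Herc6, the ligase that attaches ISG15 in mouse cells, read 9.63, 9.63 and 9.60 in WT and 12.22, 12.21 and 12.21 in KO188. The arrays of a group nearly coincided, and KO188 replicates 2 and 3 had the identical value; 26.5% of tested genes had such a tie within a group, so small SDs here may understate the spread. The means were 9.62 ± 0.01 for WT and 12.21 ± 0.0013 for KO188 (SD, n = 3 each), a log2 difference of 2.59 (SE 0.024) or 6.03-fold.

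Usp18, the protease that removes ISG15, read 10.91, 10.86 and 10.89 in WT and 13.56, 13.57 and 13.57 in KO188. Every KO188 array lay at least 2.65 above every WT array. The means were 10.89 ± 0.03 for WT and 13.57 ± 0.01 for KO188 (SD, n = 3 each), a log2 difference of 2.68 (SE 0.026) or 6.40-fold.

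The probe set shared by Isg15 and Gm9706 read 8.49, 8.47 and 8.34 in WT and 11.06, 11.04 and 10.97 in KO188. The groups did not overlap there either. The log2 difference was 2.59 (SE 0.050, 6.03-fold), from 8.43 ± 0.08 (SD, n = 3) to 11.03 ± 0.05 (n = 3), and how much of it belongs to Isg15 cannot be read from this probe set.

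**Figure D1:**
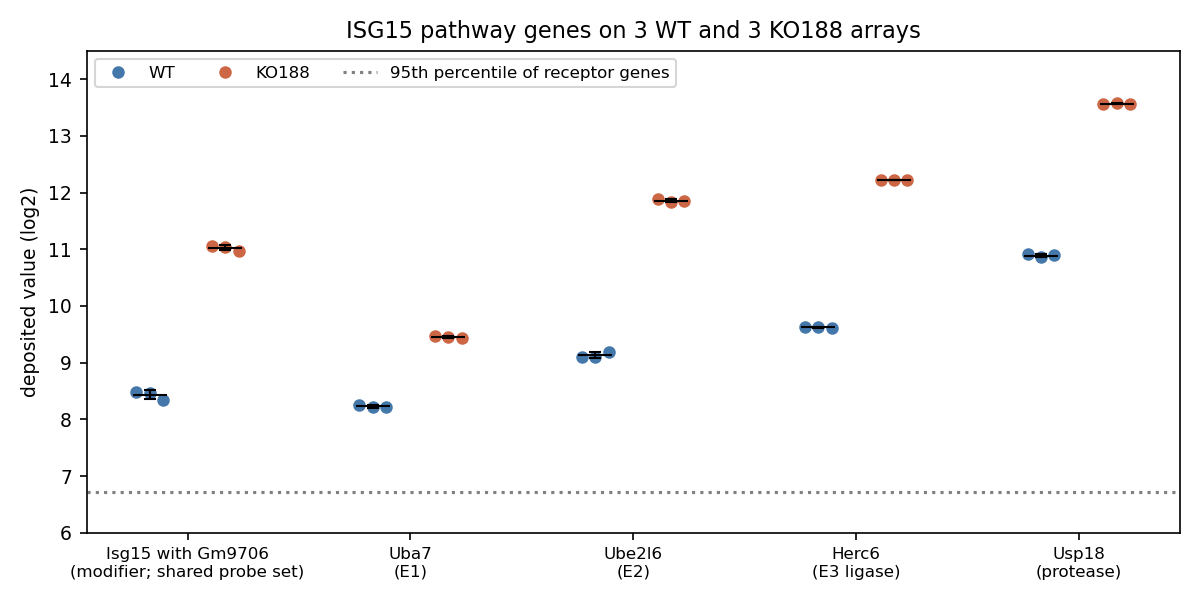
Deposited log2 value (vertical axis) of the 4 measured ISG15 pathway genes and of the probe set shared by Isg15 and Gm9706, with 1 point per array (blue WT, red KO188) and black bars for the mean and SD of 3 arrays; the dotted line is the receptor guide of 6.72. Every KO188 array lies above every WT array, by 1.18 to 2.65 at the nearest arrays, and each gene has its own probes, so heights are not comparable between genes.

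The 4 differences were not equal. Over the 9 pairs of a KO188 with a WT array, the difference ran from 1.18 to 1.25 for Uba7, from 2.58 to 2.61 for Herc6, from 2.65 to 2.71 for Usp18 and from 2.64 to 2.79 for Ube2l6. Uba7 therefore stood apart from the other 3, and Herc6 lay just below Usp18 and Ube2l6, whose ranges overlapped. Probe sets differ in how steeply they respond, so unequal log2 differences need not mean unequal change in transcript. Ranked by rise among all 19938 tested genes, Ube2l6 was at place 40, Usp18 at 43, Herc6 at 48 and Uba7 at 166, and 1.10% of all genes were at least 1 higher on the log2 scale.

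Within a group no array was the highest or the lowest for all 4 genes. In WT, Usp18 and Uba7 were highest on replicate 1, Herc6 on replicate 2 and Ube2l6 on replicate 3, while Usp18, Uba7 and Ube2l6 were lowest on replicate 2 and Herc6 on replicate 3. In KO188, Uba7, Ube2l6 and Herc6 were highest on replicate 1 and Usp18 on replicate 2. The mean of the 4 genes on an array departed from its group mean by at most 0.02 (WT replicate 2), so no single array carried the difference.

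The genes with the most similar profile over the 6 arrays were found by Euclidean distance between profiles centred on each gene's own mean, which with 2 groups of 3 arrays mainly matches the size of the difference. Sp100 (distance 0.10) and H2-Q4 (0.10) were nearest to Usp18, Phf11d (0.07) and H2-Q4 (0.13) to Ube2l6, and Tlr3 (0.08) and Ifi203 (0.09) to Herc6. Sp100 encodes a nuclear body protein, H2-Q4 a class I histocompatibility heavy chain, Tlr3 a receptor for double-stranded RNA and Ifi203 a member of the interferon-inducible p200 family, whose relatives are alike enough to share signal. Rspo2, an enhancer of Wnt signalling, and Slfn9, a Schlafen family gene, were nearest to Uba7 (both 0.05). Among the members themselves, Usp18 lay 0.11 from Ube2l6 and from Herc6, while Uba7 lay at least 1.68 from each of the others.

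The enzymes and proteases that serve ubiquitin and its other relatives had list medians from -0.15 to -0.03, beside -0.01 over all genes. In each of these lists more genes were called lower than higher, beside 16.5% lower and 13.3% higher over all genes. The share called was 66.7% of E1 enzymes, 75% of other HERC ligases (median -0.14) and 62.5% of SUMO and NEDD8 proteases (median -0.10). These 3 lists are short, and 0 of their measured genes lay at or below the receptor guide. Over all genes 29.8% were called. With the dimmer genes left out of the fit, 6217 of 9969 genes were called, 2594 higher and 3623 lower, and their median was -0.02. The shares are therefore not read as particular to these lists. Of 6 measured E1 enzymes, limma called 4 lower and 0 higher (4 at an unadjusted p under 0.05), with a median of -0.15. Uba6, an E1 for ubiquitin and the modifier FAT10, read 11.30, 11.31 and 11.33 in WT and 11.06, 11.11 and 11.01 in KO188. It fell by 0.26 (SE 0.032, limma adjusted p = 0.0012), with no overlap between the groups. Nae1, of the NEDD8 E1, fell by 0.26 (limma adjusted p = 6.0e-04), and Sae1, of the SUMO E1, fell by 0.19 (limma adjusted p = 0.0065).

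Of 33 measured E2 enzymes, 10 were called lower and 1 higher (Ube2q1, 0.13), or 33.3% beside 29.8% of all genes, with a median of -0.03. Ube2l3, the closest relative of Ube2l6 and an E2 for ubiquitin, read 12.60, 12.60 and 12.59 in WT and 12.55, 12.50 and 12.50 in KO188, a difference of -0.08 (SE 0.027, limma adjusted p = 0.072; 0.010 to 0.58 over 12 alternatives) that did not pass. Ube2s, an E2 of the anaphase-promoting complex, fell by 0.36 (limma adjusted p = 1.8e-04), Ube2q2 fell by 0.48 (limma adjusted p = 0.0013) and Ube2d2a fell by 0.13 (limma adjusted p = 0.0061). Ube2q1 lost its call with arrays centred on their medians (limma adjusted p = 0.071), and without KO188 replicate 1 the count of E2 enzymes called higher was 2.

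Of the 4 other HERC ligases, 3 were called lower and 0 higher (3 at an unadjusted p under 0.05). Herc4 read 10.09, 10.09 and 10.06 in WT and 9.90, 9.88 and 9.93 in KO188, and fell by 0.17 (SE 0.027, limma adjusted p = 0.0033). Herc3 fell by 0.17 (SE 0.045, limma adjusted p = 0.033) and Herc2 fell by 0.11 (SE 0.028, limma adjusted p = 0.030), while Herc1 was 9.50 ± 0.02 (SD, n = 3) in WT and 9.53 ± 0.03 in KO188 (limma adjusted p = 0.54). Only 1 of the 4 was called, lower, without WT replicate 1, without WT replicate 2 or without KO188 replicate 3, and the calls lost in those 3 fits were those of Herc2 and Herc3. Herc2 also lost its call without WT replicate 3 or KO188 replicate 1 and with the replicate number as a block (limma adjusted p = 0.082), and Herc3 without KO188 replicate 2.

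Among 47 other measured USP proteases, the family of Usp18, limma called 8 higher and 15 lower, or 48.9%, with a median of -0.04. Usp25, a deubiquitinase, had the largest rise of the 47, from 10.76, 10.71 and 10.82 in WT to 11.78, 11.81 and 11.75 in KO188. The difference was 1.02 (SE 0.037, 2.03-fold, limma adjusted p = 5.7e-06). Usp42 rose by 0.47 (limma adjusted p = 2.3e-04) and Usp46 fell by 0.46 (limma adjusted p = 1.7e-04). Of the 8 proteases for SUMO and NEDD8, Senp7 rose by 0.27 (limma adjusted p = 8.7e-04) and 4 were called lower, Senp1 by -0.21 (limma adjusted p = 0.0025) and Senp2 by -0.20 (limma adjusted p = 0.0086) among them. The count called lower was 2 without WT replicate 3, without KO188 replicate 2 or without KO188 replicate 3.

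Of 14 measured modifiers other than ISG15, 3 were called lower and 1 higher, or 28.6%, with a median of -0.03. Ufm1 fell by 0.26 (limma adjusted p = 0.0021), Nedd8 fell by 0.14 (limma adjusted p = 0.022) and Urm1 rose by 0.25 (limma adjusted p = 0.0061). Ubd, which encodes FAT10, a modifier with a tandem of ubiquitin-like domains as in ISG15, read 5.62 ± 0.05 (SD, n = 3) in WT and 5.61 ± 0.02 in KO188 (limma adjusted p = 0.76), below the receptor guide in both groups. With quantile normalization 3 modifiers were called higher and 2 lower. The count called lower was 1 without WT replicate 1, without WT replicate 3 or without KO188 replicate 2, and Nedd8 lost its call in each of these 3 fits (limma adjusted p = 0.0049 to 0.076 over 12 alternatives). Ufm1 lost its call with the mean of its probe sets (limma adjusted p = 0.074).

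**Figure D2:**
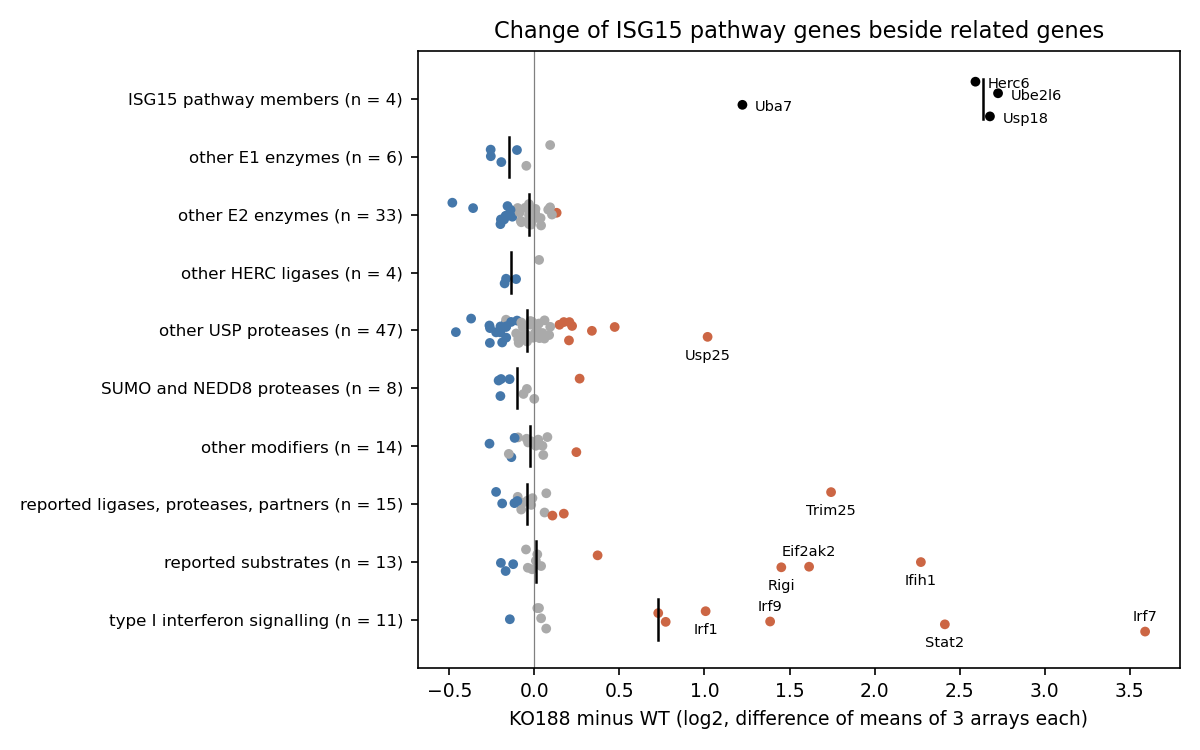
Difference of KO188 minus WT on the log2 scale (horizontal axis) for every measured gene of each list, with red for genes limma called higher, blue for genes called lower, grey for genes not called, black for the ISG15 pathway genes, which are shown as a description, and a vertical bar for the list median; vertical scatter within a row has no meaning. The pathway genes lie between 1.22 and 2.73, while the E1, E2 and HERC relatives lie between -0.48 and 0.13. The USP relatives lie between -0.46 and 1.02, with Usp25 the highest.

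Other proteins reported to act with ISG15 were mixed. Of 15 such ligases, cross-reactive proteases and binding partners, 3 were called higher and 4 lower, or 46.7%, with a median of -0.04. Trim25, a ubiquitin ligase of the RIG-I pathway that can also attach ISG15, read 9.09, 9.09 and 9.21 in WT and 10.87, 10.89 and 10.86 in KO188. It rose by 1.74 (SE 0.039, 3.35-fold, limma adjusted p = 5.7e-07). Arih1, the other ligase reported for ISG15, was 12.48 ± 0.01 (SD, n = 3) in WT and 12.46 ± 0.01 in KO188 (limma adjusted p = 0.78). The proteases Usp14 (-0.23, limma adjusted p = 0.0031) and Usp16 (-0.19, limma adjusted p = 0.0062), which can react with ISG15, fell. Other proteases of this list went otherwise: Usp21 rose by 0.17 (limma adjusted p = 0.016, passing in 8 of 12 alternatives), and Usp2, Usp5 and Usp13 were not called. Without WT replicate 1 or without WT replicate 2 the list had 1 call higher and 2 lower, and without KO188 replicate 3 it had 1 higher; with arrays centred on their medians it also had 1 higher.

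Of 13 measured genes whose proteins are reported to carry ISG15, 4 were called higher and 3 lower, or 53.8%, with a median of 0.01. The 3 with the lowest p are themselves antiviral genes that interferon is known to induce. Ifih1, which encodes the RNA sensor MDA5, rose by 2.27 (SE 0.033, 4.83-fold, limma adjusted p = 7.9e-08). Rigi, the RNA sensor RIG-I, rose by 1.45 (limma adjusted p = 4.1e-07), and Eif2ak2, the RNA-activated kinase PKR, rose by 1.62 (limma adjusted p = 7.9e-07). Tsg101, among those called lower, passed in 4 of 12 alternatives (limma adjusted p = 0.0091 to 0.16). The count called lower was 2 with quantile normalization, with the mean of probe sets or with the replicate block.

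Several transcription factor genes that carry the type I interferon signal into the nucleus were higher in KO188, while none of the receptor and Janus kinase genes was called higher. Of 11 measured genes 6 were called higher and 1 lower, or 63.6%, with a median of 0.73. Irf7, a transcription factor that amplifies interferon production, read 8.67, 8.57 and 8.69 in WT and 12.23, 12.22 and 12.24 in KO188. Its rise of 3.59 (SE 0.037, limma adjusted p = 2.9e-08) was the largest on this list.

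Stat2, the partner that recruits Usp18 to the receptor, read 9.66, 9.55 and 9.72 in WT and 12.03, 12.08 and 12.05 in KO188, a rise of 2.41 (SE 0.047, 5.33-fold, limma adjusted p = 2.9e-07). Irf9, a DNA-binding partner of STAT2, rose from 10.18, 10.18 and 10.18 to 11.61, 11.52 and 11.57, by 1.39 (SE 0.030, 2.61-fold, limma adjusted p = 5.0e-07). Irf1, an interferon-induced activator, rose by 1.01 (limma adjusted p = 9.3e-07), or by 0.70 with the mean of its probe sets. Irf2, which can oppose IRF1, rose by 0.77 (limma adjusted p = 7.2e-06), and Socs1, an inhibitor of the Janus kinases, rose by 0.73 (limma adjusted p = 7.4e-06).

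At the receptor, Ifnar2, the chain that USP18 binds, was 11.56 ± 0.03 (SD, n = 3) in WT and 11.59 ± 0.03 in KO188 (limma adjusted p = 0.57). The receptor kinases Jak1 (0.02, limma adjusted p = 0.66) and Tyk2 (0.07, limma adjusted p = 0.31) and Irf3 (0.04, limma adjusted p = 0.32), a factor that starts interferon production, did not pass. Ifnar1, the other receptor chain, fell by 0.14 (SE 0.041, limma adjusted p = 0.039), a call lost without WT replicate 1, WT replicate 3, KO188 replicate 2 or KO188 replicate 3 (limma adjusted p = 0.0097 to 0.13 over 12 alternatives). Of the 11 genes of this list with a RefSeq window, 3 held the ISRE core, namely Stat2, Irf2 and Socs1, beside 3.89% of tested genes. Ifnar1, Ifnar2, Irf1 and Irf2 held the GAS core, beside 8.99% of tested genes. The list was chosen with earlier results known, so nothing is read from these shares.

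**Figure D3:**
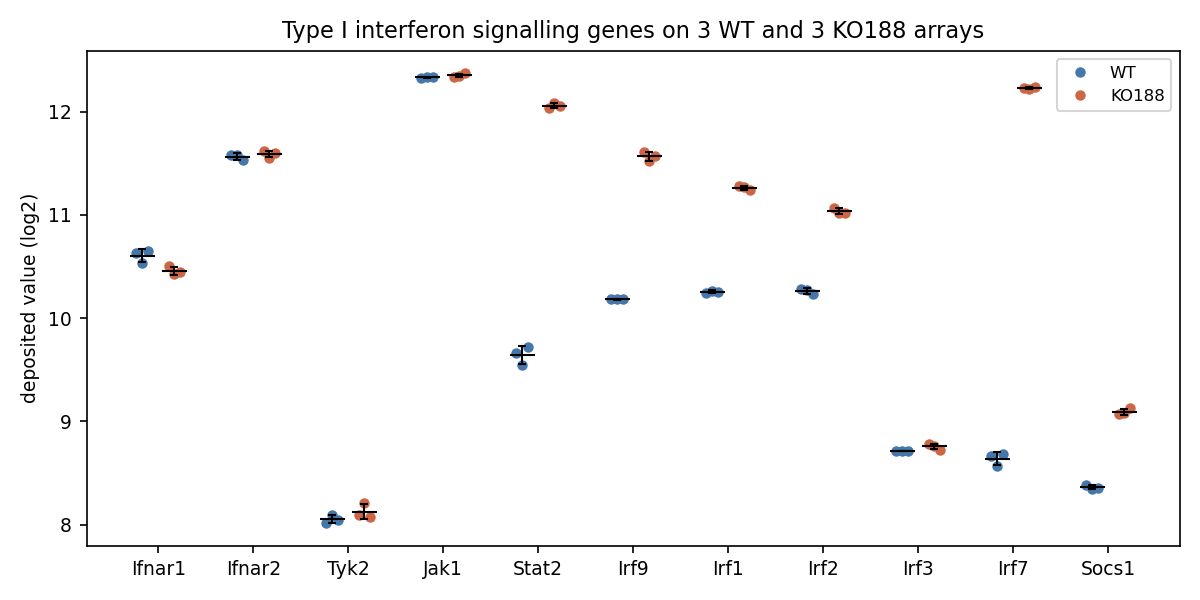
Deposited log2 value (vertical axis) of 11 type I interferon signalling genes on each of 3 WT (blue) and 3 KO188 (red) arrays, with black bars for the mean and SD. Stat2, Irf9, Irf1, Irf2, Irf7 and Socs1 lie higher on every KO188 array, by 0.73 to 3.59 in the mean, whereas Ifnar2, Tyk2 and Jak1 overlap between the groups.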

How the data were processed

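The authors deposited 1 log2 value per probe set and array; per the submitters' processing notes, Affymetrix Expression Console, Partek and RMA were used, in no stated version or order. The genome build was not given in the sources used here. Of 35556 probe sets, 21789 are paired with 1 gene symbol in GEO's platform annotation. For the 999 genes with several, that with the highest 6-array mean was used, which left 19938 genes with no filter on dim values.

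Groups came from the sample titles. KO188 was compared with WT by limma 3.58.1 in R 4.3.3 (lmFit, eBayes without trend, no covariate), with p-values adjusted by Benjamini-Hochberg across the 19938 genes and called at 0.05. Fits were tested on simulated data. The members and lists were chosen with earlier results of these data known. Named genes were all members, the signalling and HERC lists and the members' closest relatives. To these were added the 3 lowest p among the called genes of every other list. Marker genes, Tsg101, Usp2, Usp5, Usp13, Usp21 and genes named beside a small count or as the other ligase were picked with their values in view. The rule to name genes near Isg15 in profile could not be applied, so the 2 nearest to each measured member were named, skipping predicted genes and receptors. RefSeq sequence tables (GRCm38.p6) gave the promoter windows. Alternatives changed the array scaling, probe set choice, dim filter, variance trend and replicate block, or left out an array. Figures used matplotlib 3.10.9 in Python 3.11.15.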

Additional observations from a re-analysis of the deposited data

How the results depend on the processing

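No direction of a pathway member turned under any alternative. Their median difference, 2.64 as reported, was 2.58 with arrays centred on their medians, 2.66 with quantile normalization, 2.59 with the shared probe set of Isg15 and Gm9706 counted as another member (added after the data were seen), and 2.63 to 2.64 with 1 array left out. Centring gave 5126 genes lower over all genes in place of 3294 (1980 higher in place of 2643, so 27.9% of calls were higher in place of 44.5%) and moved the median of all genes from -0.01 to -0.06. With centring, calls were 1 higher among ligases, proteases and partners, 5 lower among substrates, 5 lower among modifiers and 0 higher among E2 enzymes. Modifiers had 3 higher with quantile normalization, 1 lower with the mean of probe sets, and 2 higher and 5 lower with a variance trend; E2 enzymes had 2, 4 and 3 higher with quantile normalization, the dimmer genes left out and the variance trend. Replicate numbers gave no sign of pairing (same-numbered deviations correlated at 0.02, 0.01 and -0.03), which does not show that same-numbered samples were prepared apart. With the replicate block 2271 genes were higher and 2748 lower, and the members' median was 2.64. Calls lower among ligases, proteases and partners were then 2. With 1 array left out, counts ran from 2128 to 2405 higher and 2668 to 3183 lower over all genes; for ligases, proteases and partners from 1 to 3 higher and 2 to 4 lower; for modifiers 1 to 4 lower; for E2 enzymes 1 to 2 higher; for HERC ligases 1 to 2 lower; for SUMO and NEDD8 proteases 2 to 4 lower; and for interferon signalling 0 to 1 lower. Of the genes named by the rule that did not pass, the sign turned with centring for Irf3 (-0.012), Jak1 (-0.035), Herc1 (-0.024) and Ifnar2 (-0.025), with quantile normalization for Arih1 (0.028) and Irf3 (-0.012), and with 1 array left out for Ubd (-0.042 to 0.010). The causes were not tested. Log2 values from RMA flatten for dim probe sets, which limits what can be read below the receptor guide.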
